A study of Mus musculus with 9 samples.

Results

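The 200 genes described here are autosomal transcripts that were higher in the replicate 1 pool than in the replicate 3 pool of mouse oocytes in each of 3 genotypes, XX, XO and XY. They were chosen from the deposited normalized matrix of 28051 genes. The 7002 candidates lay on chromosomes 1 to 19 and averaged 10 or more over the 9 pools on the normalized CPM scale. The study describes this scale as UMI counts normalized with spike-ins. Within each genotype the log2 ratio of replicate 1 to replicate 3 was taken after adding 1 to both values, and the lowest of the 3 ratios was the gene's score. The 200 highest scores define the set, so the size and the direction of that ratio are a description of the choice and carry no test.

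Each pool held 30 growing oocytes from females at 18 days after birth, 10 of 50 to 55 µm and 20 of 55 to 60 µm in diameter, and each genotype had 3 pools labelled as biological replicates. The XX and XY pools came from sisters born to C57BL/6 (B6) mothers and fathers whose Y chromosome is that of the TIR strain on the B6 background (B6.Y TIR). XO females came from B6 mothers and males that carry the Paf mutation, from a C3H/HeSnJ background crossed back to B6, so the XO and XX females differ in their breeding line as well as in X number. The labels give the strain of all 9 pools as C57BL/6 and name no agent or transgene. The labels do not say how many females gave one pool, and the spread between pools may be partly technical.

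An oocyte in the growth phase transcribes its genome at a high rate and stores much of the RNA for later use. Oocyte-specific transcription factors, such as TBPL2 in place of TBP, drive large families of germline genes that include NLRP genes, F-box genes and secreted oocyte proteins. Many of these families lie in clusters of near-identical copies, and young KRAB zinc finger genes, whose products bind repeats and recruit silencing factors, form similar clusters. Because RNA is counted per pool, fewer oocytes and less RNA per oocyte cannot be told apart.

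The libraries were made with Smart-seq3 and count the 5′ ends of molecules with unique molecular identifiers (UMIs). Gene UMIs ranged from 2130145 to 3157338 per pool, and 18334 to 21044 genes had at least 1 UMI. The oocyte identity of the pools was clear from Zp2, a zona pellucida gene, at 4919 to 17150 normalized CPM. Of 22 granulosa cell markers 16 were in the matrix and 8 of these had a mean under 1, with Fst, Inha and Amhr2 at or near 0. Others were detected, with Nr5a2 at 21.9 to 51.6, Serpine2 at 9.76 to 63.2, Cyp19a1 at 3.62 to 44.4 and Kitl at 5.69 to 19.2. The granulosa list summed to between 67.9 and 139 in the 9 pools. The XO replicate 1 pool stood apart, with Zp2 at 4919 against 14837 and 16248 in the other XO pools. The main counts that rest on it are also given without it. The study's own quality check names XX1, XO2 and XY1 as less similar to their other replicates, and so another XO pool. XO replicate 1 is an unnumbered column assigned from its label (processing).

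All 200 genes were higher in replicate 1 in every genotype by construction. Of the 7002 candidates, 2317 genes (33.1%) had that direction in all 3 genotypes and 2510 genes (35.8%) had the opposite one. The scores in the set ran from 0.74 to 1.72 with a median of 0.85, and 43 genes had a score of 1 or more. The median log2 ratio of replicate 1 to replicate 3 was 0.92 in XX, 1.60 in XO and 1.10 in XY pools, which are median folds of 1.89, 3.02 and 2.14. Over all candidates the medians were 0.12, −0.45 and −0.13. XX was the genotype with the smallest ratio for 124 genes, XY for 63 and XO for 13.

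The limit of the set does not mark a gap in the data. Vmn1r139, a vomeronasal receptor gene, and Sass6, a centriole assembly gene, were the last 2 inside, with scores of 0.7412 and 0.7408. The splicing factor gene Smndc1 and the model Gm29514 were the first outside, and both had 0.7394.

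Counted as a share of a pool's gene UMIs, a measure that does not use the spike-ins, the 200 genes made up 6.50%, 6.82% and 3.93% of the XX pools 1, 2 and 3. In the XO pools they made up 10.7%, 2.90% and 2.45%, and in the XY pools 8.19%, 5.43% and 3.66%. The XO replicate 1 pool was the highest of the 9 and the XY replicate 1 pool the second highest, whereas XX replicates 1 and 2 were close to each other.

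**Figure D1:**
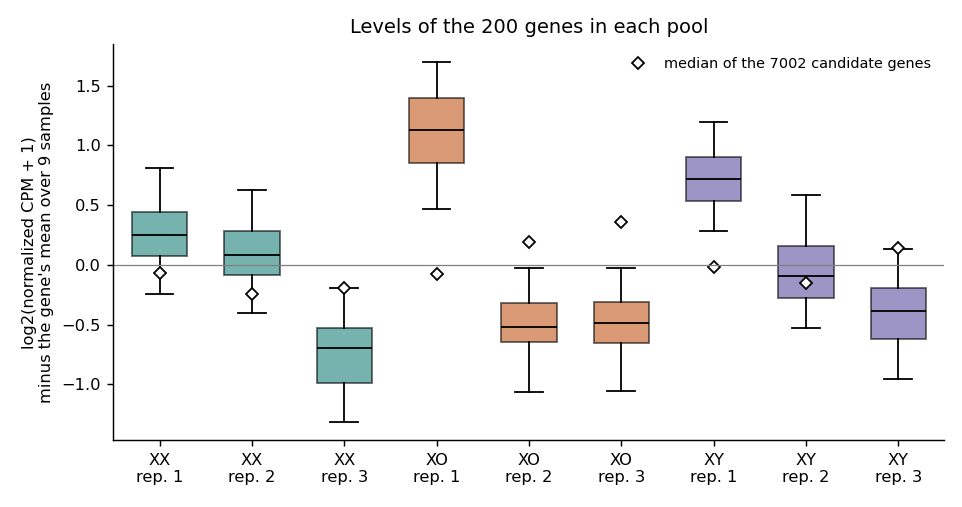
Levels of the 200 genes in the 9 pools, as log2(normalized CPM + 1) minus each gene's own mean over the pools. Boxes show the quartiles with the median and whiskers the 5th to 95th percentile over genes, and open diamonds show the median of the 7002 candidates. The medians were 1.13 in XO replicate 1 and 0.72 in XY replicate 1, and −0.70 in XX replicate 3.

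Replicate 2 entered the choice only through the mean level, and its position between the other pools differed among the genotypes. In XX pools, replicate 2 was above replicate 1 for 66 genes, between replicates 1 and 3 for 133 and below replicate 3 for 1. In XO pools, it was above replicate 1 for 0 genes, between for 96 and below replicate 3 for 104. In XY pools, the 3 counts were 6, 161 and 33. Replicate 2 was thus nearer to replicate 1 on the log2 scale for 86.5% of the genes in XX, for 3.50% in XO and for 21.0% in XY. The shares over all candidates were 68.1%, 16.1% and 41.2%. With TMM scaling in place of the deposited factors, the XY share of the 200 genes was 51.0%. The most frequent pattern, replicate 2 near replicate 1 in XX and near replicate 3 in XO and XY, held for 67.0% of the 200 genes, and 4 genes had replicate 2 near replicate 1 in all 3 genotypes.

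The library names in the labels carry a number after the letter S. Replicate 1 carried 3 in XX, 1 in XO and 4 in XY, and replicate 3 carried 9, 13 and 10. Replicate 2 carried 6 in XX, 12 in XO and 7 in XY. What the number stands for is not given in the sources used here, and the part of library preparation in the set was not tested. ERCC spike-ins made up 0.478%, 0.654% and 0.862% of UMIs in the replicate 1 pools of XX, XO and XY. They made up 0.617%, 0.356% and 0.683% in the replicate 2 pools and 0.204%, 0.369% and 0.311% in the replicate 3 pools. The scaling factors of the deposited values did not follow these shares. The factor was 1.25 in XX replicate 3, where the share was lowest, and 1.01 in XY replicate 1, where it was highest. Levels per spike-in molecule were not computed gene by gene. From replicate 1 to replicate 3 the spike-in share fell from 0.478% to 0.204% in XX and from 0.862% to 0.311% in XY. The set's share fell by a smaller factor, from 6.50% to 3.93% and from 8.19% to 3.66%. Relative to the spike-ins the summed set was thus lower in replicate 1 in XX and XY. In XO it was higher, as the spike-in share fell from 0.654% to 0.369% and the set's from 10.7% to 2.45%. A surrogate variable estimated from all genes had its 2 highest values in XO replicate 1 (0.596) and XY replicate 1 (0.38). Its lowest, −0.496, was in XO replicate 3.

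When genes were chosen from 2 genotypes alone, the ratio in the genotype left out had the same direction for nearly all of them. The 200 genes with the highest scores in XO and XY had a median log2 ratio of 0.64 in XX, where 198 of 200 were above 0, against 59.0% of the candidates. Genes chosen in XX and XY had a median of 1.40 in XO, with 192 above 0, against 39.4% of the candidates. Those chosen in XX and XO had a median of 0.83 in XY, with 193 above 0, against 45.2% of the candidates. There is 1 pair of pools per genotype, so these values have no replicate check. Of the full set, 69 genes were chosen again without XX, 151 without XO and 119 without XY.

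**Figure D2:**
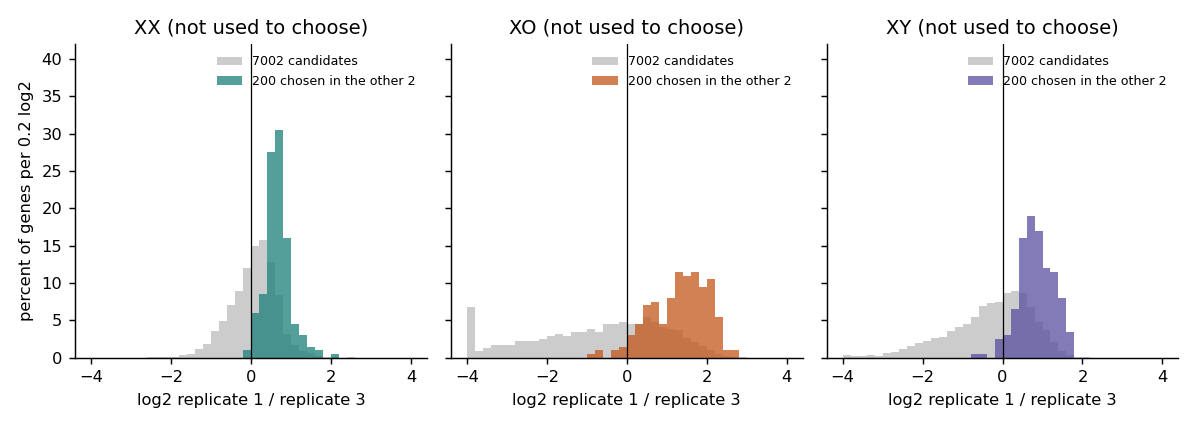
Log2 ratio of replicate 1 to replicate 3 in the genotype that was not used to choose the genes, as percent of genes per bin of 0.2, with values beyond −4 or 4 placed in the end bins. Coloured bars are the 200 genes chosen in the other 2 genotypes and grey bars the 7002 candidates. The coloured medians were 0.64 in XX, 1.40 in XO and 0.83 in XY.

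TMM scaling moved the median log2 ratio of all candidates by −0.18 in XX, 0.39 in XO and 0.02 in XY. All 200 genes kept their direction under it, and the counts by direction given below for gene groups are on the normalized CPM scale. Under TMM, 2305 candidates (32.9%) were higher in replicate 1 in all 3 genotypes and 2805 (40.1%) in replicate 3.

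Several of the most abundant genes of the set are known from oocytes. Fbxw24 (chr9:109601116-109626057), which encodes an F-box protein with WD40 repeats, had 8020, 9140 and 4585 normalized CPM in XX pools 1, 2 and 3. Its values were 22183, 4837 and 4597 in XO pools and 12719, 6098 and 4553 in XY pools. The 3 replicate 3 pools and XO replicate 2 were nearly level, and the spread came from the 5 other pools.

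Oosp1 (chr19:11667460-11691150), the gene of a secreted oocyte protein, had 3938, 4242 and 2225 in XX, 9137, 2494 and 2495 in XO and 5572, 3195 and 2527 in XY pools. It was the only one of the 22 oocyte markers that belonged to the set. The summed level of the oocyte list was 20185 to 31304 in the replicate 1 pools and 33163 to 66727 in the replicate 3 pools. In the replicate 2 pools it was 30167 in XX, 47069 in XO and 30595 in XY. The gap was small in XX, at 31304 in replicate 1 and 33828 in replicate 3. One by one, 17 of the 22 were higher in replicate 3 in all 3 genotypes, against 35.8% of candidates. Oosp1, Dazl and Ddx4 were higher in replicate 1, against 33.1% of candidates. Dazl and Ddx4, both germ cell RNA-binding protein genes, were outside the set, with Ddx4 at 629, 608 and 759 in the replicate 1 pools of XX, XO and XY and 408, 420 and 402 in the replicate 3 pools. Zp1 and Padi6, a zona gene and a gene of the cytoplasmic lattices, had 14 and 212 in XO replicate 1 against 2166 and 16520 in XO replicate 3. The part of these oocyte transcripts in the set was not tested.

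Among the 35 candidate zona, maternal effect and NLRP genes, 4 were in the set: Oosp1, Nlrp9b, Nlrp4c and Nlrp5-ps. NLRP proteins are cytoplasmic NOD-like proteins, several of which are needed for early cleavage. Nlrp9b had 2019, 1950 and 1090 in XX, 5377, 1155 and 1171 in XO and 2732, 1441 and 966 in XY pools. Nlrp4c was lower, at 171, 167 and 95.4 in XX, 270, 90.0 and 59.3 in XO and 198, 125 and 78.5 in XY pools. The pseudogene Nlrp5-ps lay between 24.3 and 90.6 in all 9. In the whole list, 15 genes were higher in replicate 1 in all 3 genotypes and 17 were higher in replicate 3, against 33.1% and 35.8% of candidates, so the list as a whole leaned to neither side.

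Tbpl2, which encodes the TBP-like factor of oocytes, ranked 8th with a score of 1.27. It had 47.7, 37.1 and 19.2 in XX, 70.9, 25.8 and 18.6 in XO and 39.5, 24.7 and 15.7 in XY pools. In each genotype replicate 1 was its highest pool and replicate 3 its lowest. Of the other 10 candidate oocyte transcription and secreted factors none was in the set, and 7 of the 11 in all were higher in replicate 3 in every genotype.

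**Figure D3:**
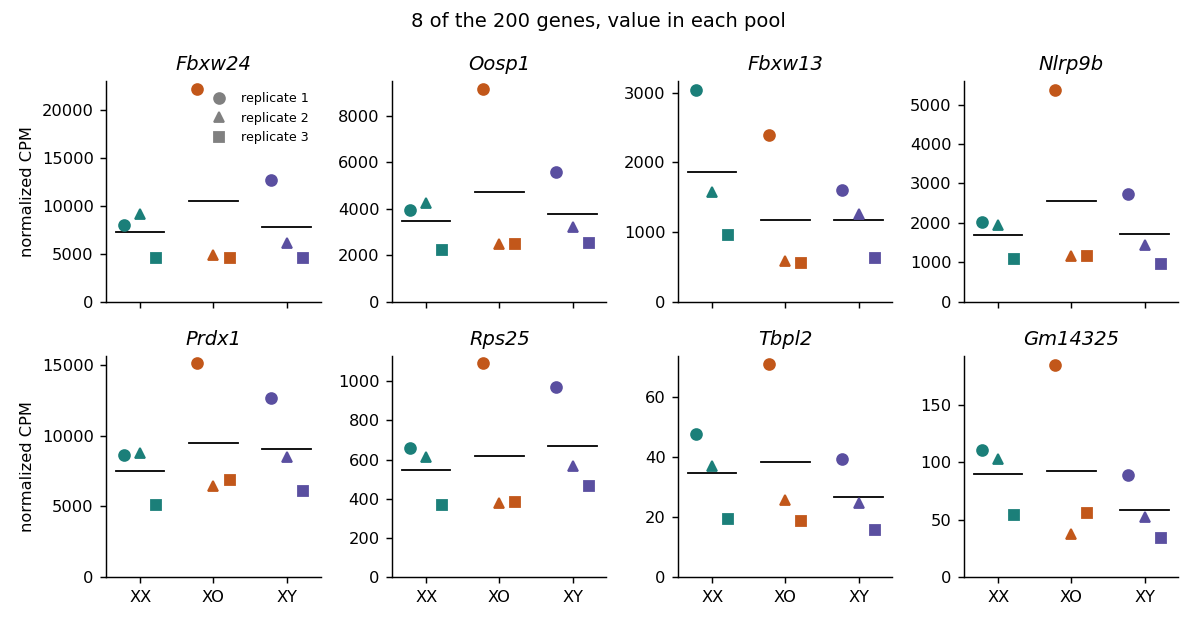
Normalized CPM of 8 genes of the set in the 9 pools, with the replicate given by the marker shape and the mean of 3 pools by a black line. In each gene the replicate 1 pool of XO was above the other 2 XO pools, and in Oosp1 the XX replicate 2 pool, at 4242, was above XX replicate 1.

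The F-box genes of the set lay together. Fbxw13, Gm42494, Gm42493 and Fbxw24 fell in 0.447 Mb of chromosome 9 (chr9:109179227-109626057). That window held 13 candidates, and all 13 were higher in replicate 1 in the 3 genotypes, also under TMM scaling, including the 9 that are not in the set (Fbxw14, Fbxw15, Fbxw16, Fbxw19, Fbxw20, Fbxw22, Fbxw23, Fbxw28 and Gm42756). Fbxw13 had 3041, 1574 and 953 in XX, 2395, 583 and 554 in XO and 1607, 1261 and 632 in XY pools, and was the only gene among the 15 highest scores with values above 500 in every pool. Gm42493, annotated as antisense RNA, had 4209, 4816 and 2187 in XX, 12146, 2360 and 2085 in XO and 5418, 3373 and 2474 in XY pools. Gm42494 ranged from 329 to 1826. The Fbxw genes are close copies of each other, so reads may be divided among them and their separate values are uncertain.

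Of the 53 candidates in oocyte multicopy families, 4 were in the set, namely Fbxw13, Fbxw24, E330017A01Rik and Speer5-ps1 (7.55%, against 2.86% of all candidates). In this list 30 were higher in replicate 1 in all 3 genotypes and 16 were higher in replicate 3. E330017A01Rik on chromosome 16 had 7048, 7467 and 4126 in XX, 16111, 3972 and 4128 in XO and 8948, 5181 and 3863 in XY pools. Speer5-ps1, a pseudogene of the Speer family, had 778 in XX replicate 3 and 3556 in XO replicate 1. Of 171 candidate ubiquitin ligases and deubiquitinases, Trim27 was the only other member beside Fbxw13 and Fbxw24, with 503, 446 and 294 in XX, 521, 292 and 278 in XO and 509, 252 and 232 in XY pools. For Trim27 the 3 replicate 1 pools were almost level, unlike the genes above.

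The longest run of neighbours was on distal chromosome 2. Gm14444, Gm14399 and Gm14440 lay at chr2:175010241-175286805. Gm14288, 2210418O10Rik, Gm14435, Gm14296, Gm14418, Gm14403, Gm14322 and Gm14325 lay in 2.05 Mb at chr2:175789357-177840336. The second window held 24 candidates, with Zfp966, Zfp967, Zfp970 and Zfp973 among them. Of the 24, 22 were higher in replicate 1 in all 3 genotypes, and so were 14 of the 16 that are not in the set. Under TMM scaling the count was 21 of 24. Gm14325 had 111, 103 and 54.2 in XX, 185, 37.2 and 55.9 in XO and 89.2, 52.4 and 34.1 in XY pools. Gm14322 had 91.9, 94.5 and 50.6 in XX, 182, 53.2 and 53.1 in XO and 102, 66.7 and 38.9 in XY pools. These are models with near-identical copies, named because the run was noticed after their values were seen.

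RefSeq promoters (GRCm38.p6) were at hand for 5 of the 8 genes in the second window. The 250 bases before the start are shown for 3 of them, because they let the similarity of the copies be seen directly. Capitals mark the CCAAT box on either strand, which reads ATTGG when it lies on the other strand.
Gm14325, chr2:177840337-177840586, minus strand: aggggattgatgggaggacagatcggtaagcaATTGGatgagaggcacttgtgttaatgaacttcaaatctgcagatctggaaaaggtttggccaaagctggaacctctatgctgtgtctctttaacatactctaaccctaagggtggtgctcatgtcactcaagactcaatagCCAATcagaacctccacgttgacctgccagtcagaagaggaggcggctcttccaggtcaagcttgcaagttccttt
Gm14322, chr2:177759038-177759287, plus strand: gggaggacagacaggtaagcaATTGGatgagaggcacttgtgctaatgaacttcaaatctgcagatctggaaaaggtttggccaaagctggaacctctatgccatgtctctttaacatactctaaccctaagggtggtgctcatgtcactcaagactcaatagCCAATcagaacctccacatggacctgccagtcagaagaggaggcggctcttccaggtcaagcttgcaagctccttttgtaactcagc
2210418O10Rik, chr2:176226315-176226564, plus strand: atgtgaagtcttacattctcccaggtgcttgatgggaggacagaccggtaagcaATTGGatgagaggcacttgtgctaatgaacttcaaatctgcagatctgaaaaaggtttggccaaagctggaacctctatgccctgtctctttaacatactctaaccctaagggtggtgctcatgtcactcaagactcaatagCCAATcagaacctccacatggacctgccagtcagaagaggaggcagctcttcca

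In local alignments Gm14325 and Gm14322 were identical at 231 of 239 columns (96.7%). Gm14322 and 2210418O10Rik were identical at 213 of 217 columns (98.2%). Over the 10 pairs of the 5 promoters the identity ran from 93.8% to 98.2%. All 5 held 2 CCAAT matches, and 34.5% of the 27025 RefSeq promoters held at least 1 within the same 250 bases. A match is a description of the letters only. Since 110 of the 200 genes (55.0%) had a promoter in the table, a comparison of motif shares over the set is void.

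Zinc finger genes named Zfp, some of which lie in the chromosome 2 window, were mixed. Of 174 candidates, 6 were in the set (3.45%, against 2.86% of all candidates) and 83 were higher in replicate 1 in all 3 genotypes, against 39 higher in replicate 3 (75 and 43 under TMM scaling). Zfp97 and Zfp960 are neighbours on chromosome 17. Zfp97 had 188, 220 and 112 in XX, 742, 144 and 138 in XO and 437, 258 and 181 in XY pools. Zfp960 had 98.7, 95.2 and 49.0 in XX, 401, 78.6 and 77.9 in XO and 233, 135 and 95.4 in XY pools. In both, XO and XY replicate 1 stood above the other 7 pools, and XX replicates 1 and 2 were close to each other. Zfp951 ranged from 153 to 672 and Zfp729b from 49.0 to 272, each with its highest value in XO replicate 1. On chromosome 13, the window of Uqcrb, Zfp595, Zfp729b and CT573016.1 held 21 candidates, of which 15 were higher in replicate 1 in all 3 genotypes, or 11 of 17 without the members.

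The ribosomal protein genes were divided. Of 56 candidate cytosolic ribosomal protein genes, 7 were higher in replicate 1 in all 3 genotypes and 34 were higher in replicate 3 (9 and 38 under TMM scaling). Of the 7, 4 were in the set: Rpl7, Rps24, Rps25 and Rps13. Rps25, a small subunit gene, had 659, 612 and 367 in XX, 1092, 379 and 382 in XO and 972, 568 and 465 in XY pools. Rpl7 ranged from 753 to 2098 and was highest in XY replicate 1, and Rps24 ranged from 514 to 1537. All ribosomal protein genes together held 1.02% of UMIs in XO replicate 1 and 1.47% and 1.63% in the other XO pools, so their sum in XO was lowest in the pool where these 4 were highest. In XX the share was 1.91%, 1.85% and 1.64% in pools 1, 2 and 3, and in XY it was 1.49%, 1.71% and 1.62%.

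Rps13 and its copies illustrate what the counting can and cannot separate. Rps13 had 120, 100 and 64.9 in XX, 262, 65.1 and 69.4 in XO and 136, 84.3 and 77.6 in XY pools. The processed pseudogenes Rps13-ps1, Rps13-ps2, Rps13-ps4 and Rps13-ps5 lie on chromosomes 7, 8 and 11 and are all in the set. The last 3 stood at 0.978 to 1.02 times Rps13-ps1 in each of the 9 pools, and Rps13-ps1 at 0.756 to 0.951 times Rps13. The same holds for Trmt112, a methyltransferase cofactor gene, and Trmt112-ps1, with a ratio of 0.86 to 1.03. Such pairs share reads, and each family is best counted as 1 signal.

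Of 53 candidate heat shock proteins and chaperones, 3 were in the set (5.66%, against 2.86% of all candidates), and 22 were higher in replicate 1 in all 3 genotypes against 21 in replicate 3. Hspd1, the mitochondrial chaperonin gene, had 55.2, 54.6 and 32.3 in XX, 99.9, 48.1 and 57.6 in XO and 72.0, 40.4 and 40.1 in XY pools. Dnajc2, a ribosome-associated cochaperone gene, ranged from 37.8 to 176, and Ppig, a nuclear cyclophilin gene, from 65.7 to 222. Prdx1, which encodes a peroxide-reducing enzyme, was the only one of 30 candidate antioxidant genes in the set, with 8647, 8793 and 5070 in XX, 15111, 6399 and 6886 in XO and 12653, 8453 and 6084 in XY pools. Nexn, the gene of an actin-binding protein, ranged from 703 to 2950.

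The genes with the highest scores were mostly of low level. AC069561.4 on chromosome 9, annotated as a polymorphic pseudogene, led with a score of 1.72 and had 16.4, 7.0 and 4.27 in XX, 35.2, 6.20 and 7.34 in XO and 18.6, 10.1 and 4.83 in XY pools. In XX replicate 3 it rested on 14 UMIs and in XO replicate 3 on 13, and it overlaps Olfr916 on the same strand, so their reads cannot be fully separated. AC159622.3, a lincRNA on chromosome 12, followed with 1.44. Esrra, the gene of an orphan nuclear receptor that drives mitochondrial genes, had 16.4, 9.80 and 5.48 in XX, 31.1, 6.72 and 10.7 in XO and 20.0, 8.79 and 6.64 in XY pools. Its span overlaps Trmt112 on the opposite strand, and the counting used strand.

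Gpat3, which acylates glycerol 3-phosphate, had a score of 1.41 and the lincRNA Gm46430 one of 1.33. Scnn1a, a sodium channel subunit gene, had 12.8, 8.05 and 2.13 in XX, 23.8, 5.69 and 7.90 in XO and 17.7, 12.7 and 6.64 in XY pools, with 7 UMIs in XX replicate 3. Msh5, needed for meiotic crossovers, had 18.2, 20.0 and 7.01 in XX, 24.3, 13.4 and 4.52 in XO and 31.1, 20.5 and 12.1 in XY pools. Stx4a, a membrane fusion gene, had a score of 1.19 and values of 35.3, 27.0 and 14.9 in XX, 60.1, 22.7 and 22 in XO and 81.8, 46.2 and 35.3 in XY pools. Vmn2r58, 4931423N10Rik, 1700123J17Rik and 4931414P19Rik were also among the 15 highest, with scores from 1.19 to 1.25.

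Over the whole set the lowest of the 9 UMI counts had a median of 40, and 74 genes (37.0%) had under 25 UMIs in their lowest pool, against 35.8% of the candidates. The median of the genes' mean level was 38.1 normalized CPM, against 33.7 for candidates. The mean level includes the replicate 1 pools, where members are high by the choice, so it does not compare the 2 groups fairly. Some members passed the minimum mean through those pools. In the replicate 2 and 3 pools, AC069561.4 had 4.27 to 10.1 and Scnn1a 2.13 to 12.7. How many members did so was not counted.

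Genes named for immune signalling were also present, chosen here after their values were seen. Il33, an alarmin gene, ranged from 7.24 to 35.7, Il23r from 10.7 to 57.0, Il20 from 23.8 to 94.8 and Cxcr5 from 6.70 to 37.6. Lepr, the leptin receptor gene, had 89.0, 82.6 and 46.0 in XX, 167, 52.7 and 64.9 in XO and 87.8, 49.2 and 45.3 in XY pools. Of the 5 immune cell markers in the matrix, 4 had a mean under 1. The remaining one, Csf1r, had 7.84, 0.518 and 3.25 in the replicate 1 pools of XX, XO and XY and 14.9, 20.9 and 13 in the replicate 3 pools.

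Features that the choice did not use also set the genes apart from the candidates. Protein-coding genes made up 66.5% of the set against 84.7% of the candidates. LincRNAs were 14.5% against 5.64%, antisense RNAs 6.00% against 3.93% and pseudogenes 9.50% against 3.08%. The pseudogenes include the Rps13 and Trmt112 copies and the nuclear copies of mitochondrial DNA, Gm10222 and Gm28439. These share reads with other genes, so the pseudogene share can count a signal more than once. Models without a gene name, such as those named Gm or Rik, were 83 of 200 (41.5%) against 17.6%.

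The transcripts of the set were shorter and poorer in G and C. The longest annotated transcript had a median of 2100 bases against 3331 for candidates, the exon number a median of 4 against 7, and the GC content of that transcript a median of 43.2% against 46.4%. The difference remained in protein-coding genes alone, at 42.8% against 46.4% GC and 2879 against 3703 bases. The 200 genes found by the same rule in the opposite direction, higher in replicate 3, had 51.6% GC and 2260 bases, so low GC was on the side of replicate 1 and short transcripts on both sides. The 200 genes chosen in XX and XY alone had 44.8% GC, 2008 bases, 4 exons and 64.5% protein-coding genes, so the lower GC content was smaller without the XO pair.

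The candidates were divided into 5 equal classes of GC content. In the lowest class 78 of 1400 candidates were in the set (5.57%), then 48, 21, 19 and, in the highest, 34 (2.43%). Chosen without the XO pair, the numbers were 64, 43, 25, 26 and 42 (4.57% in the lowest and 3.00% in the highest). All candidates followed the GC content as well. In the lowest class the median log2 ratio of replicate 1 to replicate 3 was 0.32 in XX, 0.65 in XO and 0.45 in XY, and in the highest it was −0.11, −1.68 and −0.69. In 5 classes of transcript length the members numbered 85 (6.08%) in the shortest and 11 (0.786%) in the longest (84 and 15 without the XO pair), whereas the median ratio of all candidates in XO was −0.61 and −0.28 in those 2 classes. The part of GC content and length in the set was not tested.

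**Figure D4:**
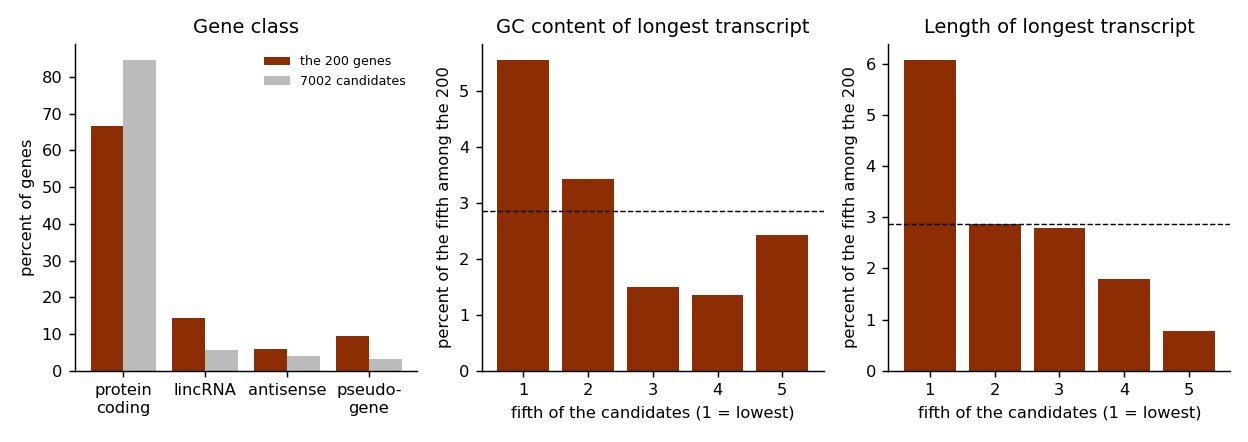
Gene class of the 200 genes and the 7002 candidates in percent (left), and the percent of candidates that belong to the set in each of 5 classes of GC content (middle) and of length of the longest transcript (right). Dashed lines mark the 2.86% over all candidates. The share was 5.57% in the lowest GC class and 6.08% in the class of shortest transcripts.

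Of 42 gene lists, 19 had no member, with 430 candidates in them. The 19 lists were grouped because they had no member, so this cannot be compared with the 2.86% of all candidates in the set. They include 47 translation factors, 35 proteasome genes, 48 spliceosome genes, 24 nuclear pore genes and 38 chromatin remodelers. Of the 200 genes, 41 fell in a named list and 159 fell in none. The share of all candidates in a named list was not counted, so this is no result about the members. By chromosome, the share of candidates in the set ran from 1.37% on chromosome 4 to 4.64% on chromosome 19, with 24 of 571 (4.20%) on chromosome 2. In all, 58 members lay in 23 groups in which each start was within 500 kb of the next. The same count was not made for the candidates. Some of the groups are overlapping genes, such as Rps13-ps4 with Taf1c and Gm28439 with Gm10222.

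Genes of the mitochondrial genome were outside the rule. Of 22 mitochondrial genes with a mean of at least 10 over the 9 pools, 22 were higher in replicate 1 in every genotype, against 33.1% of autosomal candidates, and 10 reached the score of the set. Of these, 3 transfer RNA genes (mt-Tl1, mt-Ty and mt-Tr) passed the minimum only through the replicate 1 pools, and mt-Ty did so through XY replicate 1 alone, at 291 against 0 to 3.21 elsewhere. The other 19 also averaged 10 or more in the 6 pools of replicates 2 and 3, and 19 of 19 had that direction. Under TMM scaling 21 of the 22 kept that direction. Their median log2 ratio was 0.76 in XX, 2.03 in XO and 1.30 in XY. They are made from the same 2 long precursors, so they are not separate observations. mt-Nd5 had 2097, 2485 and 1018 in XX, 7480, 1684 and 1880 in XO and 4483, 2387 and 1429 in XY pools, and mt-Nd4 ranged from 370 to 2356. Both encode subunits of respiratory complex I.

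Mitochondrial RNA made up 5.09%, 5.55% and 3.01% of UMIs in XX pools 1, 2 and 3. It was 13.1%, 3.12% and 2.65% in XO pools and 10.8%, 6.02% and 3.88% in XY pools. XX replicate 2 was thus near XX replicate 1 and XO replicate 2 near XO replicate 3, the order seen in the 200 genes. Of the 40 candidate nuclear genes of oxidative phosphorylation, by contrast, 4 were higher in replicate 1 in all 3 genotypes and 20 in replicate 3 (3 and 26 under TMM scaling), and only Uqcrb, a complex III subunit gene, was in the set, at 132 to 442. The part of mitochondrial content in the set was not tested.

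**Figure D5:**
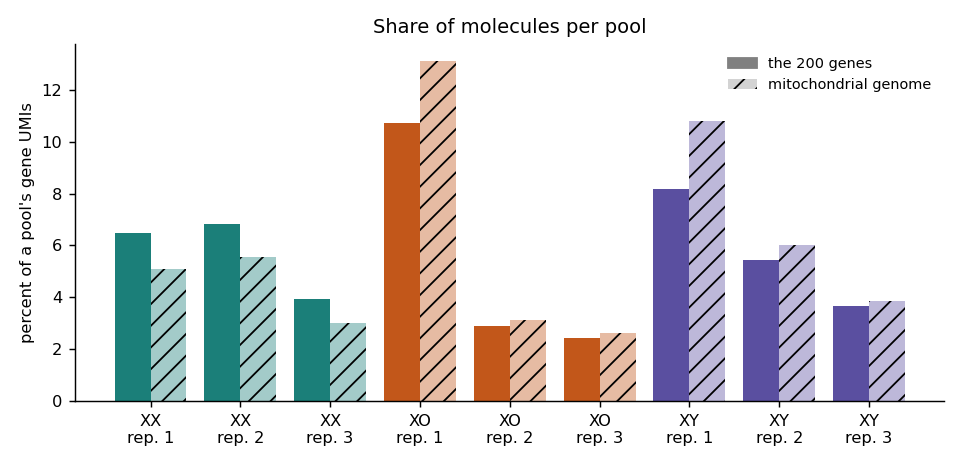
Percent of each pool's gene UMIs that belonged to the 200 genes (solid bars) and to the mitochondrial genome (hatched bars). XO replicate 1 was highest for both, at 10.7% and 13.1%, and XY replicate 1 second, at 8.19% and 10.8%.

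A stretch of chromosome 1 that is a nuclear copy of mitochondrial DNA enters the set through Gm10222 (chr1:24612407-24612700) and Gm28439 (chr1:24611535-24612410). Gm10222 had 1165, 1479 and 614 in XX, 4692, 917 and 953 in XO and 2935, 1582 and 1097 in XY pools. Its value was 0.989 to 1.01 times that of mt-Nd4l in every pool. Gm28439 ranged from 311 to 2018. The reads of the 2 copies cannot be told apart at such equal values, and both members are uncertain as nuclear transcripts.

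On the X chromosome, 106 of 244 candidates (43.4%) were higher in replicate 1 in all 3 genotypes and 12 (4.92%) reached the score of the set. Tmsb15b1 and Tmsb15l, overlapping thymosin genes, led with 1.29 and 1.02. Tmsb15l had 23.2, 15.1 and 10.7 in XX, 39.3, 14 and 11.9 in XO and 31.6, 16.9 and 15.1 in XY pools. The noncoding 2810403D21Rik had 0.97 and ranged from 19.1 to 71.1.

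The study compared genotypes at an unadjusted p of 0.05, in limma with surrogate variables. Here the same threshold was used in edgeR's quasi-likelihood test without a covariate. For XX against XO, 0 of the 200 were higher and 3 lower in XX, where 1.40% and 16.7% of the 10993 tested genes were called. For XX against XY, 1 was higher and 4 were lower, against 1.41% and 4.39%. For XY against XO, 1 was higher and 0 were lower, against 1.69% and 8.24%. After Benjamini-Hochberg adjustment over all genes, 0 of the 200 passed 0.05 in any of the 3 contrasts in edgeR, and 0 in DESeq2. Of all 10993 genes, 0, 9 and 4 passed in the 3 contrasts in edgeR, so few could pass at all. The choice raises the spread within each genotype, with a median standard error of 0.55 against 0.46 over all genes for XX against XO, and so lowers these counts by itself. A pairing of the pools by replicate number is not established (processing). In an alternative fit with the replicate as a block, 7 genes were higher and 3 lower for XY against XO. In that fit 2.49% and 14.1% of all genes were called. With a surrogate variable as covariate the counts were larger, 82 lower for XX against XO among them against 31.8% of all genes, and are given with the alternatives.

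Cflar, the gene of an inhibitor of caspase 8, had 37.4, 35.0 and 18.3 in XX, 69.9, 20.7 and 32.7 in XO and 146, 72.6 and 83.0 in XY pools. All 3 XY pools lay above the other 6. Its log2 fold change was −1.73 ± 0.50 (SE, n = 3) for XX against XY, with a Benjamini-Hochberg adjusted p of 0.514 in edgeR. For XY against XO it was 1.29, with an adjusted p of 0.485 in edgeR. At the unadjusted threshold the first call was kept in 15 of 15 alternatives and the second in 12 of 15.

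1700095A21Rik had 3.56, 5.25 and 1.22 in XX, 47.1, 10.9 and 13 in XO and 19.1, 5.53 and 6.04 in XY pools, and no XX pool reached an XO pool. Its log2 fold change for XX against XO was −2.82 ± 0.78 (SE, n = 3), with an adjusted p of 0.203 in edgeR, and the call at the unadjusted threshold was kept in 15 of 15 alternatives. The XX values of 1700095A21Rik rested on 10, 15 and 4 UMIs. It passed the minimum mean of 10 only through the replicate 1 pools, so its call is uncertain. Slco1a4, an organic anion transporter gene, had 32.4, 14.7 and 11.3 in XX, 119, 37.2 and 29.4 in XO and 94.3, 48.8 and 43.8 in XY pools. It was lower in XX by −1.67 on the log2 scale against XO and by −1.68 against XY, with adjusted p of 0.229 and 0.72 in edgeR. XX replicate 1 overlapped the XO pools and not the XY pools, and the calls were kept in 11 and 12 of 15 alternatives.

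Gm46430 was lower in XX in both contrasts, with log2 fold changes of −1.72 and −1.45 and adjusted p of 0.214 and 0.778 in edgeR, kept in 12 and 9 of 15 alternatives. Nubpl, an assembly factor gene of complex I, was lower in XX than in XY by −1.22 on the log2 scale, with an adjusted p of 0.855 in edgeR, kept in 6 of 15 alternatives. Slc9a2, a sodium and proton exchanger gene, was higher by 1.13 on the log2 scale, with an adjusted p of 0.842 in edgeR, kept in 10 of 15 alternatives. It had 124, 109 and 65.8 in XX and 78.1, 29.9 and 29.0 in XY pools.

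The median log2 fold change of the 200 genes was −0.38 for XX against XO, −0.26 for XX against XY and −0.09 for XY against XO, beside −0.46, −0.19 and −0.30 over all genes tested. These medians changed sign with single pools. Without XO replicate 1 the median was 0.46 for XX against XO and 0.67 for XY against XO. Without XY replicate 1 it was 0.15 for XX against XY and −0.56 for XY against XO, and without XY replicate 3 it was 0.10 for XY against XO. TMM scaling gave 0.11 for XY against XO.

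Without XO replicate 1, 12 of the 200 genes were higher and 1 was lower for XX against XO, where 2.77% and 34.2% of all genes were called. For XY against XO, 35 were higher and 0 lower, against 4.53% and 27.6%. For XX against XY, 5 were higher and 21 lower, against 2.55% and 8.52%. Leaving out all 3 replicate 1 pools was tried after the data were seen. It gave 11 and 3 for XX against XO, against 2.08% and 35.1% of all genes. For XX against XY it gave 11 and 8, against 2.30% and 8.51%, and for XY against XO 10 and 1, against 2.24% and 23.6%.

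Direction counts were also repeated in XX and XY alone, after the data were seen, where 41.1% of candidates were higher in replicate 1 in both and 36.9% in replicate 3. Without the members, the F-box window kept 9 of 9 and the chromosome 2 window 14 of 16. The 19 mitochondrial genes that passed the minimum without the replicate 1 pools all had this direction, as in all 3 genotypes. With the members included, Zfp genes numbered 93 higher in replicate 1 and 42 in replicate 3. Oocyte multicopy genes numbered 33 and 16, and ribosomal protein genes 12 and 34.

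The authors' batch-regressed log2 values gave another picture of the set. There the median difference of replicate 1 and replicate 3 was 0.40 in XX, −0.21 in XO and 0.21 in XY, and 17 of the 200 genes remained higher in replicate 1 in XO. Only 6 of the 200 were chosen again when the rule was run on those values among the same candidates.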

How the data were processed

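Genotype and replicate were taken from the sample titles, 3 pools each of XX, XO and XY oocytes, and no sample or column was left out (0 columns unmapped). An XO column is unnumbered in the matrices. It was assigned to XO replicate 1, whose library name is the only unnumbered one in the labels. The sources name HISAT2, limma and GRCm38. Per the study's methods, the authors counted UMIs of 5′ reads per gene with strand and deposited these counts. They also deposited log2 values with batch effects regressed out, and a signal called normalized CPM. The study describes the latter as counts normalized with ERCC spike-ins, but its factors did not follow the spike-in shares.

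From these, the 200 genes were chosen on normalized CPM with a pseudocount of 1, and gene class, length and GC content came from Gencode vM21 by Ensembl ID. The members and the gene lists were chosen with earlier results of these data known. Genotypes were compared on the deposited counts with edgeR 4.0.16 (glmQLFTest, two-sided, filterByExpr, 10993 genes) and the factors of the deposited normalized CPM. All 9 pools were in 1 fit, with p below 0.05 as threshold. The script was tested on simulated counts.

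Alternatives were TMM scaling, DESeq2 1.42.0, no filter, a replicate block, 1 surrogate variable (sva 3.50.0), leaving out each pool, other pseudocounts and minimum means. Pairing was judged from the correlation of same-numbered pools in these data, not from the labels. For XY and XO it was 0.818, 0.272 and 0.766 in replicates 1, 2 and 3. It was 0.45, −0.427 and 0.665 for XX and XO, and 0.416, −0.058 and 0.711 for XX and XY. Only XY and XO were positive in all 3, with a low value in replicate 2, so a pairing is not established. Genes named in the text are the 15 with the highest score, the 15 with the highest mean, up to 4 per gene list with 3 or more members, up to 4 called per contrast and direction, those next to the limit of the set, members of marker lists, and the 5 X-linked or mitochondrial genes of highest score. Others are named as noticed, and 1 gene that the rule names is not reported here. Depth was 2130145 to 3157338 gene UMIs per pool.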

Additional observations from a re-analysis of the deposited data

How the results depend on the processing

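The direction of the ratio between replicates 1 and 3 was kept under TMM scaling, where the XO median was 1.98, and changed in XO in the batch-regressed values. There the XX, XO and XY medians were 0.40, −0.21 and 0.21. The rule chose 69 of the 200 genes again without XX, 119 without XY and 6 on batch-regressed values, and 135 to 165 with another pseudocount, scaling or minimum mean. The medians in a left-out genotype and of replicate 2 moved by less than the SD among the 3 genotypes' medians under TMM scaling and a pseudocount of 5. That SD measures the difference among genotypes, not the uncertainty of a value. The XY median of replicate 2 against the mean of replicates 1 and 3 went from −0.22 to 0.00 under TMM scaling.

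Counts of members called between genotypes depended on the fit, as higher and lower in the first genotype, and the shares of all genes called moved as well. For XX against XO they were 1 and 1 under TMM scaling (5.90% and 6.02% of all genes) and 1 and 3 in DESeq2 (4.07% and 9.64%). They were 1 and 12 with no filter (0.638% and 13.5%) and 2 and 14 with the replicate block (1.91% and 21.1%). With the surrogate variable they were 6 and 82 (6.16% and 31.8%). For XX against XY they were 1 and 2 under TMM scaling (2.58% and 2.77%) and in DESeq2 (2.62% and 2.62%). They were 5 and 19 with no filter (0.813% and 3.52%) and 10 and 28 with the block (2.35% and 6.81%). With the surrogate variable they were 23 and 49 (5.53% and 17.4%). For XY against XO they were 2 and 0 under TMM scaling (5.39% and 3.68%) and 3 and 3 with no filter (1.05% and 8.70%). They were 7 and 3 with the block (2.49% and 14.1%) and 9 and 63 with the surrogate variable (7.88% and 20.4%). After adjustment, 58, 39 and 33 members passed in the 3 contrasts with the surrogate variable, and 3 and 1 in the first 2 with no filter. Without XO replicate 1, 6 and 3 passed for XX against XO and XY against XO. Without all replicate 1 pools, 6 passed for XX against XO, and 0 passed in the other fits. The share of all genes that passed in these fits was not counted, so these are no result about the members. Leaving out pools moved the counts from 0 to 12 higher and 1 to 10 lower for XX against XO, 0 to 11 and 1 to 21 for XX against XY, and 0 to 35 and 0 to 3 for XY against XO. The highest of these were reached without XO replicate 1 in 3 cases and without all replicate 1 pools in 1, with the shares of all genes given above. The 10 lower for XX against XO came without XO replicate 3 (7.95% of all genes). The 3 lower for XY against XO came without XY replicate 1 (4.58%). The cause of these shifts was not tested. No pairing of pools is established, so the block is only an alternative fit.

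With 3 pools per genotype and 1 pair of replicates 1 and 3 in each, the set has no replicate of its own. The UMIs limit the low genes, and read sharing among copies limits the Fbxw, Rps13, Trmt112, chromosome 2 and mitochondrial-copy members.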
